A study of Mus musculus with 12 samples.

Results

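The comparison was between tumours of KO line 24 and WT tumours that were pooled, captured and sequenced together in a single gene expression library of a mouse series about melanoma rejection. KO line 24 is a line of SCC35 labelled as a knockout of Mif, and the deposited hashtag sheet gives it 3 tumours, taken on days 6, 10 and 16. The same sheet lists 3 tumours as WT, on the same days and with no line number, while the label of the library itself names only KO line 24 and control line 18. What separates WT from the numbered control lines, the mouse strain, and whether each tumour came from its own animal are not stated in the labels or the sheet. Each group has 1 tumour a day, all marked with the letter C in the sheet. The p-values of gene tests between the groups measure how the gap between KO line 24 and WT varied over the 3 days. No day has a replicate within a group. The tests of cell shares compare the 6 tumours without the day pairs. The knockout side is 1 line, so an effect of the knockout cannot be told apart from a difference between lines. Of 31304 barcodes in the library, 29847 passed a filter of at least 300 genes and at most 15% mitochondrial UMIs (unique molecular identifiers, the count of captured transcripts), and 23100 carried 1 hashtag with at least 20 counts and at least 3 times the second. The 6 tumours held 18281 of these cells, 9029 from WT and 9252 from KO line 24, out of 176381 barcodes in the 6 libraries of the series. Another 4819 cells came from 2 tumours of control line 18 (days 6 and 10), a line that the labels call a control for the knockout, and their levels are given beside the comparison.

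Mif, macrophage migration inhibitory factor, is a small secreted cytokine made by tumour cells and by most leukocytes. It binds CD74, the invariant chain of MHC class II, together with CD44 or with the chemokine receptors CXCR2 and CXCR4. In tumours it is best known for its effects on myeloid cells. Tumour macrophages range from monocyte-derived cells with inflammatory cytokines to resident-like cells that carry the complement component C1q, the mannose receptor Mrc1 and the folate receptor Folr2. The lipid receptor Trem2 is placed here in a separate list of lipid-associated macrophage genes. Migratory dendritic cells, which carry antigen to lymph nodes, are marked by Ccr7, Fscn1 and, when activated, Il12b and Ccl22.

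The assignment of cells to tumours rests on barcodes carried by the hashtag antibodies, so the 6 that define the comparison are shown first. All letters are in capitals because the whole barcode is read.
WT day 6: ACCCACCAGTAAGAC
WT day 10: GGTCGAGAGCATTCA
WT day 16: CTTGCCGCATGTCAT
KO line 24 day 6: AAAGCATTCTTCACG
KO line 24 day 10: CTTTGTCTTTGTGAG
KO line 24 day 16: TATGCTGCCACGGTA
Any pair of the 8 barcodes in use differed at 7 or more of 15 positions. The hashtag of the WT tumour of day 16 was the weakest, with 972334 counts against 2780859 to 6798831 for the other 5.

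The tumours held 2411 to 3562 cells and 11836947 to 23470133 UMIs each. The median UMI count of a cell was 6422.5, 5981 and 4134.5 in WT tumours of days 6, 10 and 16 and 3010, 4062 and 3901 in KO line 24 tumours, so the median over all cells was higher in WT on every day. Cells with at least 2 UMIs of Ptprc, the leukocyte antigen CD45, and Tyrobp, an adaptor of myeloid and natural killer cells, were taken as immune cells and all remaining cells as other cells. In other cells the medians were 7709, 6530 and 4469 in WT and 4038, 4728 and 4811.5 in KO line 24. Day 16 thus had the opposite order in that class. The 7 markers of pigment cells summed to 11.6 to 14.8 CPM in WT and 12.2 to 14.3 CPM in KO line 24 tumours in other cells, most of it Mitf, a transcription factor that other cell types also use, at 10 to 13.7 CPM. Dct, Tyr, Tyrp1 and Mlana had no UMI in other cells of the 6 tumours, where a count of 0 allows up to 0.0592 CPM over the WT and 0.0822 CPM over the KO line 24 tumours. Sox10 lay at 0.307 to 3.3 CPM. Levels are given in CPM, UMIs per 1e6 of a tumour's cell class. They are scaled by TMM in edgeR, except for summed marker levels, levels in cells of neither gate and in other cells without immune gate UMIs, and those of Cck and Fscn1 in other cells and of Xcl1 in the T gate, which are not scaled. Among the immune cells a T gate (at least 2 UMIs of Cd3d, Cd3e, Cd3g and Trac) and a macrophage gate (at least 2 UMIs of Csf1r, Adgre1, Cd68, Fcgr1 and Ms4a7) were set. Collagen RNA was found in both gates: the summed level of 14 collagen genes in T-gate cells was 28.9% to 93.8% of that in other cells, and in macrophage-gate cells 39.9% to 65.1%. All tumours shared the free RNA of 1 library, and its part in the results below was not tested. Of the 18281 cells, 3313 had a barcode that also occurs in another library of the series.

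Mif was read first, as the check of the labels. The gene (ENSMUSG00000033307) lies on chromosome 10, minus strand, from 75859353 to 75860240 in the GENCODE M21 annotation of GRCm38, with up to 3 exons in a transcript. In other cells it stood at 2459.9, 2564 and 2154 CPM in the WT tumours of days 6, 10 and 16 and 1108, 1156 and 1086 CPM in those of KO line 24. The 2 tumours of control line 18 had 1844 and 1957 CPM. All KO line 24 tumours lay below all WT and control tumours (log2 fold change -1.1, SE 0.059, edgeR adjusted p 0.0117). Transcripts of Mif remained in KO line 24. The fall was -1.42 with a hashtag ratio of 10 and -1.54 with HTODemux, another caller of hashtags, so the size of the remainder depended on the hashtag rule. In cells thinned to 1000 UMIs each, a Mif UMI was found in 47.5% to 51% of other cells of KO line 24, against 76.2% to 82.8% in WT. The unthinned shares were 74.6% to 77.6% and 90.9% to 94.3%. Immune cells, which come from the mouse and not from the tumour line, showed no such gap. There Mif was at 1601.5, 1573 and 1457 CPM in WT and 1518, 1425 and 1576.5 CPM in KO line 24 (log2 fold change -0.035, SE 0.072, edgeR adjusted p 0.86). In KO line 24 the other cells thus held less Mif than the immune cells of the same tumours, and in WT they held more. A term for the difference between the effects in the 2 classes was 1.05 on the log2 scale (SE 0.11, edgeR adjusted p 0.00322). Leaving out the pair of day 6 or of day 10 left the fall of Mif in other cells at -1.07 and -1.06 without passing the edgeR threshold (adjusted p 0.18 and 0.0893).

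**Figure D1:**
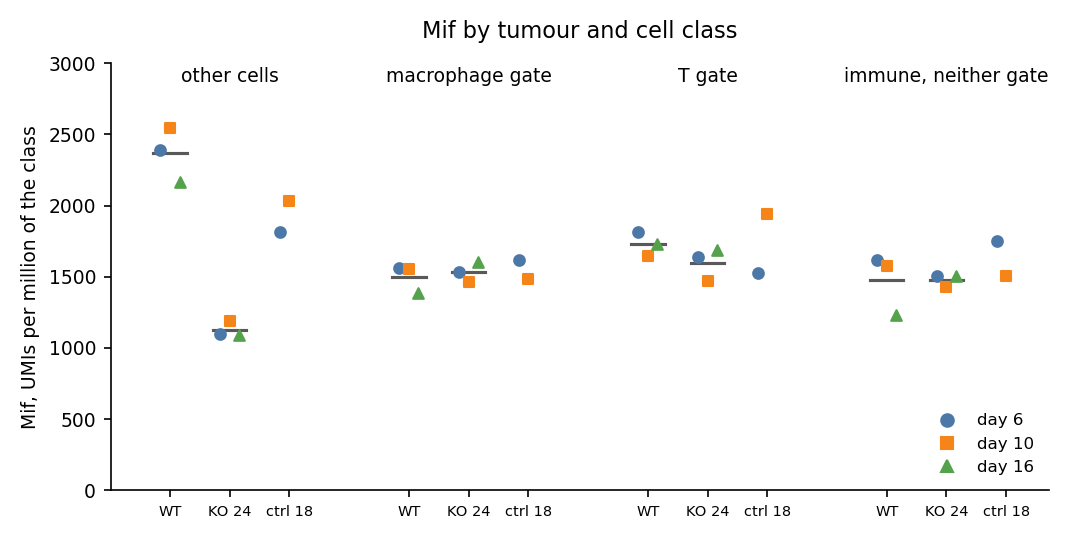
Mif in CPM of each cell class without scaling (vertical axis) for the WT, KO line 24 and control line 18 tumours; each point is 1 tumour, coloured by day, and bars are group means of the 3 WT and 3 KO line 24 tumours. In other cells KO line 24 lies at 1100.0, 1186 and 1091 against 2391, 2546 and 2168 in WT, while in the immune classes the WT and KO line 24 points overlap.

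In other cells, which hold the tumour line together with stroma, 86 of 13081 genes passed an edgeR adjusted p of 0.05 (0.657%), 67 of them higher in KO line 24 (0.512%) and 19 lower (0.145%). The count rests on the pairs of days 6 and 10: without either, none passed in edgeR (1273 and 1210 genes at an unadjusted p under 0.05), and without day 16 1854 passed. DESeq2 called 388 genes on all 3 pairs. Genes are ranked here and below among those called whose mean logCPM reached 3 and whose 3 days had the same sign, and some sparser genes had larger estimates. Such a choice favours genes whose groups do not overlap, so a lack of overlap in genes named by it is no separate result. The largest rises under this rule were those of Aqp4, a water channel, and of Mmp3, the matrix metalloproteinase stromelysin 1. Aqp4 was at 1.4, 2.66 and 8.44 CPM in the WT tumours of days 6, 10 and 16 and 17.5, 37.4 and 56.3 CPM in those of KO line 24 (log2 fold change 3.32, SE 0.22, edgeR adjusted p 0.0168). Mmp3 was at 8.04, 7.06 and 6.57 CPM in WT and 104, 73.9 and 31.8 CPM in KO line 24 (log2 fold change 3.2, SE 0.26, edgeR adjusted p 0.0226). For both genes every KO line 24 tumour lay above every WT tumour, and control line 18 lay with WT, at 0.488 and 1.42 CPM for Aqp4 and 9.55 and 13 CPM for Mmp3. Without the day term the calls of Aqp4, Ctla4, Clec2d, Ly6c1, Cd74, H2-Aa, H2-Ab1, H2-Eb1, Csf1, Csf2, Cx3cl1, Skil and Jun were lost, and that of Mmp3 was not. Within KO line 24 the level of Aqp4 was highest on day 16 and that of Mmp3 on day 6.

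The next largest rises under the rule were those of the T-cell genes Ctla4 and Tnfrsf4, given below, followed by Lama4, Gpc4, Cxcl12 and Alcam. Lama4, the laminin alpha 4 chain, stood at 7.47, 9.47 and 12.3 CPM in WT and 30.4, 39.7 and 38.4 CPM in KO line 24 (log2 fold change 1.91, SE 0.11, edgeR adjusted p 0.0117). Gpc4, a heparan sulfate proteoglycan of the glypican family, had 6.95, 8.29 and 8.61 CPM in WT and 26.5, 32.6 and 30.5 CPM in KO line 24 (log2 fold change 1.91, SE 0.09, edgeR adjusted p 0.0111). Alcam, the adhesion molecule CD166, had 4.93, 8.34 and 8.17 CPM in WT and 20.1, 19.8 and 36.4 CPM in KO line 24, a log2 fold change of 1.79. Cxcl12, the chemokine that binds CXCR4, had 11.8, 15.1 and 16.1 CPM in WT and 44.6, 66.8 and 38.7 CPM in KO line 24 (log2 fold change 1.79, SE 0.17, edgeR adjusted p 0.0301). The groups did not overlap in these 4 genes, which were named for their large called changes among the 0.512% of genes called higher. Markers of endothelial cells, which also express several of these genes, summed to 37.2 to 49.8 CPM in WT and 70.6 to 78.8 CPM in KO line 24 tumours, and keratinocyte markers to 3.75 to 10.9 CPM in WT and 11 to 45.8 CPM in KO line 24 tumours. After removal of endothelial, fibroblast and keratinocyte gate cells the log2 fold changes of Lama4, Gpc4, Alcam and Cxcl12 were 2.05, 2.03, 1.77 and 1.93, all past the edgeR threshold.

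The genes that fell under the rule did so by less. Tslrn1, a long noncoding RNA, had 27.6, 23.3 and 22.2 CPM in WT and 12.2, 11.1 and 9.05 CPM in KO line 24 (log2 fold change -1.18, SE 0.094, edgeR adjusted p 0.0226), and Pmp22, a membrane protein of peripheral myelin, had 49.8, 40.3 and 38.3 CPM in WT and 24.1, 19 and 16.1 CPM in KO line 24 (log2 fold change -1.12, SE 0.081, edgeR adjusted p 0.0183). Control line 18 stood at 11.1 and 10.9 CPM for Tslrn1, at the level of KO line 24, and at 18.7 and 36.3 CPM for Pmp22. Il1rl1, which encodes the receptor of interleukin 33, had 431, 375 and 363 CPM in WT and 190.2, 158 and 241 CPM in KO line 24 (log2 fold change -1.01, SE 0.13, edgeR adjusted p 0.0492). In control line 18 it was lower still, at 57.6 and 97.6 CPM. Msln (mesothelin), Pawr (a proapoptotic regulator), Clec2d (a ligand of the NK cell receptor NKR-P1) and Ly6c1 (a surface protein of endothelial cells and some leukocytes) had log2 fold changes of -0.83, -0.77, -0.76 and -0.65. Ly6c1 was the most abundant of them, with 1777.5, 1438 and 1502 CPM in WT and 1183, 837 and 997 CPM in KO line 24 and 154 and 412 CPM in control line 18. For Ly6c1 and Il1rl1 both tumours of control line 18 lay below all 3 of KO line 24, whereas for Msln and Pawr both lay above them. No test was run against that line.

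**Figure D2:**
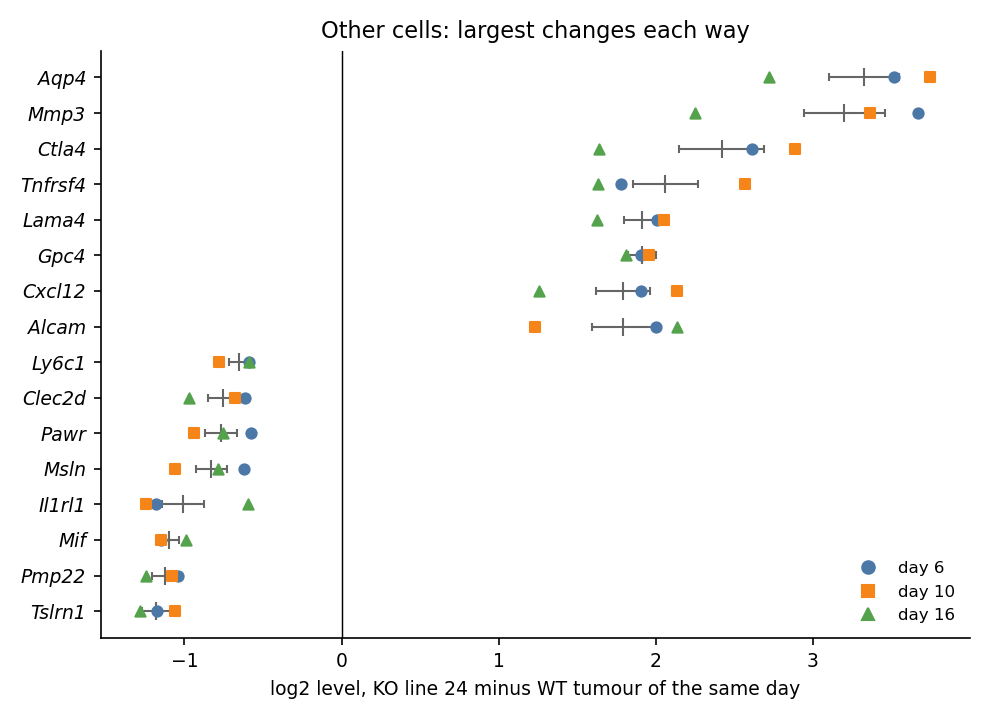
Differences in log2 level between the KO line 24 and the WT tumour of the same day in other cells (horizontal axis) for the 8 largest rises and falls under the naming rule; points are days, and the vertical tick with its bar is the edgeR estimate with its standard error. The naming rule required the 3 days to lie on the same side of 0; the estimates run from -1.18 for Tslrn1 to 3.32 for Aqp4.

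Of 15 tested chemokine and colony-stimulating factor genes 3 rose and 1 fell, beside 0.512% and 0.145% of all genes. Besides Cxcl12, Cx3cl1 (fractalkine, a chemokine for monocytes and cytotoxic lymphocytes) had 58.3, 55.7 and 71.7 CPM in WT and 89.5, 112 and 139 CPM in KO line 24 (log2 fold change 0.86, SE 0.092, edgeR adjusted p 0.0398), and Csf2 (GM-CSF) had 11, 6.65 and 20.5 CPM in WT and 20.9, 21.6 and 41.7 CPM in KO line 24 (log2 fold change 1.21, SE 0.16, edgeR adjusted p 0.0498). Csf1, the growth factor of macrophages, had 438, 334 and 386 CPM in WT and 289.8, 224 and 242 CPM in KO line 24 (log2 fold change -0.62, SE 0.057, edgeR adjusted p 0.0301). Control line 18 had 148 and 203 CPM of Csf1, 11.4 and 18.3 CPM of Cx3cl1 and 0.434 and 0.968 CPM of Csf2, below both groups in each. Among 13 genes of TGF-beta signalling, Skil, a transcriptional repressor of the pathway, rose (log2 fold change 0.9) and the ligand Tgfb2 fell (-0.6). Of 12 MAPK feedback genes Dusp6, a phosphatase of ERK, rose (0.71), and of 12 immediate early genes Jun, a subunit of AP-1, rose with 599, 697 and 866 CPM in WT and 952, 1011 and 1314.5 CPM in KO line 24 (log2 fold change 0.6, SE 0.055, edgeR adjusted p 0.0301).

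Several further lists held no called gene, beside 0.657% of all genes. At that share, lists of 9 to 20 genes would mostly hold none. None of 12 genes of MHC class I presentation passed (median log2 fold change 0.12, against -0.0027 over all genes), nor any of 20 interferon response genes (0.069), 18 cell cycle genes (-0.064), 12 p53 targets (0.18), 10 checkpoint ligands (0.31), 14 collagens (0.12) or 9 tested genes of dedifferentiation (-0.052). B2m, the light chain of MHC class I, had 3010.2, 2992 and 3579 CPM in WT and 2299, 2620.3 and 3549 CPM in KO line 24, and Cxcl10, an interferon-induced chemokine, 658, 383 and 687 CPM in WT and 1239, 418 and 761 CPM in KO line 24. Top2a, a topoisomerase of dividing cells, had 229.6, 278 and 258 CPM in WT and 228, 261 and 272 CPM in KO line 24 (log2 fold change -0.0082, SE 0.061, edgeR adjusted p 0.961). Sox9, a transcription factor of dedifferentiated melanoma, had 226, 211 and 183 CPM in WT and 179, 152 and 193 CPM in KO line 24 and 68.5 and 64.4 CPM in control line 18. Krt18, a keratin of simple epithelia, went with the days in WT from 203 to 72.1 CPM, and was 72.9, 62.3 and 57.4 CPM in KO line 24 (edgeR adjusted p 0.0903).

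MHC class II genes rose together in other cells, with 5 of 7 called higher, beside 0.512% of all genes, and a median log2 fold change of 1.18. H2-Ab1, a beta chain of the class II molecule, had 27.4, 14.9 and 29.2 CPM in WT and 64.6, 32.9 and 65.1 CPM in KO line 24 (log2 fold change 1.18, SE 0.071, edgeR adjusted p 0.0117). H2-Aa, the alpha chain that pairs with it, and H2-Eb1, the beta chain of the I-E molecule, had log2 fold changes of 1.27 and 1.3. Cd74, the invariant chain and a receptor of Mif, had 86.6, 57.6 and 131 CPM in WT and 240.5, 119.6 and 332 CPM in KO line 24 (log2 fold change 1.29, SE 0.093, edgeR adjusted p 0.0183). The Cd74 groups overlapped by 1 tumour, with KO line 24 on day 10 below WT on day 16. These levels were far below those of macrophage-gate cells, where Cd74 had 4641, 5038 and 11975 CPM in WT and 4172, 8745 and 9284 CPM in KO line 24. Macrophage markers in other cells summed to 59.2 to 147 CPM in WT and 116 to 177 CPM in KO line 24 tumours, with overlap. All 11 of them had higher estimates in KO line 24 without passing. Relative to the macrophage gate of the same tumour, their level was 0.629% to 1.19% in WT and 2.1% to 4.6% in KO line 24. These ranges did not overlap. The level in the gate, to which they are relative, was itself lower in KO line 24. It was 6090 to 12331 CPM in WT and 3853 to 5960 CPM in KO line 24 tumours. The percentages thus differed more between the groups than the levels in other cells did. Relative to the macrophage gate, the class II genes in other cells were at 1.07% to 1.86% in WT and 1.43% to 5.64% in KO line 24, with overlap. B-cell markers in other cells summed to 1.26 to 4.02 CPM in WT and 7.78 to 8.33 CPM in KO line 24 tumours, without overlap. In the other cells with no UMI of any gene used to gate immune cells, chosen after the data were seen, 64 of 12278 genes passed (0.521%), 51 of them higher (0.415%). Class II genes rose there too: Cd74 was at 54, 42.7 and 87.3 CPM in WT and 137, 96.8 and 297 CPM in KO line 24 (log2 fold change 1.42, edgeR adjusted p 0.0151), and H2-Aa, H2-Ab1 and H2-Eb1 also passed, 4 of 6 tested genes in all. The summed class II genes in these cells were 99.5 to 165 CPM in WT and 192 to 469 CPM in KO line 24 tumours. NK markers summed to 3.01 to 3.39 CPM in WT and 4.99 to 6.51 CPM in KO line 24 tumours, without overlap, and Ccr7 was at 2.74, 0.439 and 1.36 CPM in WT and 6.08, 3.1 and 4.34 CPM in KO line 24, also without overlap. Neutrophil markers, at 3.11 to 8.25 CPM in WT and 12.8 to 27.9 CPM in KO line 24, did not overlap either. T-cell markers overlapped, at 1.81 to 4.3 CPM in WT and 4.03 to 5.2 CPM in KO line 24. Of the 8 T-cell genes 4 are at 0 by the choice of these cells. B-cell markers (0.81 to 3.62 CPM in WT, 2.6 to 5.61 in KO line 24) and dendritic cell markers (86.6 to 96.1 and 88.4 to 103) overlapped too. How many of all genes lacked overlap in these cells was not counted. Of the C1q genes, C1qa and C1qb were higher in every KO line 24 tumour than in every WT tumour and C1qc overlapped, as did Trem2. The macrophage list, of which 5 of 11 genes are at 0 by the choice of these cells, summed to 25.5 to 54.9 CPM in WT and 35 to 58.3 CPM in KO line 24 tumours. The part of immune cells in the class II rise was not tested. Without the day term none of Cd74, H2-Aa, H2-Ab1 and H2-Eb1 passed, and the edgeR adjusted p of Cd74 was 0.158.

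Class II genes share a promoter module of an X box followed by a Y box, read by RFX and NF-Y factors that recruit the transactivator CIITA. The promoters of 2 class II genes that rose are shown for this module, together with that of Mmp3, whose promoter is known for an AP-1 site. They are the 250 bases before the RefSeq start, from the GRCm38.p6 table, on the strand of the gene. Capitals mark GCAAC, within the X box, and ATTGG, the Y box, in the class II genes, and TGAGTCA in Mmp3.
H2-Aa, minus strand, chr17:34287824-34288073: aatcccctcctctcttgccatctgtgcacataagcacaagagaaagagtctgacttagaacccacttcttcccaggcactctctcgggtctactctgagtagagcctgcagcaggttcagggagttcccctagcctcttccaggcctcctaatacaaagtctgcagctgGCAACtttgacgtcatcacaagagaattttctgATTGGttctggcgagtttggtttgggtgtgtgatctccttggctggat
H2-Eb1, plus strand, chr17:34305617-34305866: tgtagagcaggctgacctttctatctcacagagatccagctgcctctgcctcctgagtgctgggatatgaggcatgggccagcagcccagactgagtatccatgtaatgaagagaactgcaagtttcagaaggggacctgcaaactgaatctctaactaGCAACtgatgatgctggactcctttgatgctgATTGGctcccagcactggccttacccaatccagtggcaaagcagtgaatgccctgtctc
Mmp3, plus strand, chr9:7445572-7445821: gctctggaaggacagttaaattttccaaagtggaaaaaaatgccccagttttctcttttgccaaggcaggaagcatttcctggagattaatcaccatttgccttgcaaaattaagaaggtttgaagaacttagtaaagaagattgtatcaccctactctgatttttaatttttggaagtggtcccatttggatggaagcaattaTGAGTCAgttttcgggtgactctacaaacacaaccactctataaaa
GCAAC began 81 bases before the start of H2-Aa and 91 before that of H2-Eb1, and ATTGG followed 33 and 32 bases on. On either strand, 29.9% of 32851 promoter windows of this length hold GCAAC, 33.8% hold ATTGG, and 0.387% hold both with starts 28 to 37 bases apart in this order, a spacing set after these promoters were read. TGAGTCA stands 46 bases before the start of Mmp3 and in 4.46% of windows. These matches describe the letters only.

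Genes of T cells were also higher in the other cells of KO line 24. Ctla4, an inhibitory receptor of activated T cells, had 1.3, 2.97 and 5.42 CPM in WT and 8.63, 22.8 and 17.2 CPM in KO line 24 (log2 fold change 2.42, SE 0.27, edgeR adjusted p 0.0429), and Tnfrsf4, the costimulatory receptor OX40, had 3.22, 4.76 and 5.59 CPM in WT and 11.4, 28.9 and 17.6 CPM in KO line 24 (log2 fold change 2.06, SE 0.21, edgeR adjusted p 0.0328). All 8 T-cell markers had higher estimates there without passing (median log2 fold change 2.15), and they summed to 13.9 to 99.2 CPM in WT and 78 to 209 CPM in KO line 24 tumours. Cells with at least 2 UMIs of the T-gate genes, and more of them than of the macrophage-gate genes, made up 1.03, 1.73 and 7.25% of other cells in WT and 6.94, 20.4 and 13.7% in KO line 24. The part of these cells in the rises of Ctla4 and Tnfrsf4 was not tested on its own. Pdcd1, the inhibitory receptor PD-1, was also called higher, at a lower mean level. In the other cells without any immune gate UMI, Mif, Aqp4, Mmp3, Lama4, Gpc4, Alcam and Cxcl12 passed, with log2 fold changes of -1.2, 3.49, 3.94, 2.12, 2.11, 2.0 and 1.98. Ctla4 and Tnfrsf4 did not pass in these cells, and Pdcd1 was too sparse to be tested. Of the 5 inhibitory receptors tested there, Ctla4 among them, 3 had higher estimates (median log2 fold change 0.39, highest 0.756). Of 8 costimulation genes, Tnfrsf4 among them, 7 had higher estimates (median 0.93, highest 1.39). Of 7 memory and homing genes 6 had higher estimates (median 0.53, highest 1.7). None of these genes passed, and the causes were not tested.

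An earlier analysis of these data had named 9 genes that set the KO lines apart from the numbered control lines. Cd74 is given above, and the other 8 were read here against WT. Tspan6, a tetraspanin, had 12.4, 10.4 and 6.93 CPM in WT and 7.61, 10.8 and 8.36 CPM in KO line 24 (log2 fold change -0.13, SE 0.2, edgeR adjusted p 0.794), while control line 18 had 27.7 and 35.2 CPM. WT was thus at the level of KO line 24, and control line 18 alone stood above. Gap43, a growth cone protein, had 0.363, 1.95 and 1.24 CPM in WT and 2.39, 5.65 and 2.3 CPM in KO line 24 and 5.16 and 20.1 CPM in control line 18, with WT lowest. Srpx2, a secreted sushi-repeat protein, had 6.07, 6.4 and 4.35 CPM in WT and 3.75, 3.99 and 3.3 CPM in KO line 24 and 8.14 and 15.7 CPM in control line 18. S100a16, a calcium-binding protein, had 19.9, 29.2 and 55.7 CPM in WT and 83.3, 113 and 78.5 CPM in KO line 24 (log2 fold change 1.5, SE 0.31, edgeR adjusted p 0.0854), with all KO line 24 tumours above all WT tumours and WT above the 9.82 and 16.1 CPM of control line 18. Il17rd, an antagonist of FGF signalling, had 1.45, 2.0 and 4.88 CPM in WT and 9.31, 14.5 and 10.7 CPM in KO line 24 (log2 fold change 2.18, SE 0.36, edgeR adjusted p 0.0627). C1s1, a protease of the complement pathway, Dmp1, a matrix protein of bone, and Sprr1a, a protein of the cornified envelope, had log2 fold changes of 0.74, 1.46 and -0.99. None of these 8 genes passed the edgeR threshold against WT, with adjusted p from 0.0627 to 0.794. The KO line 24 and control line 18 tumours read here were part of that analysis, and the WT tumours were not.

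Immune cells formed a larger share of KO line 24 tumours. They were 26.6, 19.8 and 22.2% of cells in WT and 34.8, 27.4 and 37.9% in KO line 24 on days 6, 10 and 16, a mean of 22.9% ± 3.45 (SD, n = 3) against 33.4% ± 5.42 (SD, n = 3). KO line 24 was higher on all 3 days and the groups did not overlap. The exact two-sided permutation p, without the day pairs, was 0.10, the smallest that 3 against 3 allows. Control line 18 had 19.8% and 38.4%. The gap depended on how cells were called. Thinned to 1000 UMIs, WT had 16.9, 12.7 and 14.9% and KO line 24 21.4, 13.2 and 23.7%, with KO line 24 on day 10 below WT on days 6 and 16 (exact permutation p = 0.30). With at least 4 UMIs required the order reversed on day 10, at 16.5% in WT and 14.4% in KO line 24. With a hashtag at least 10 times the second it reversed on day 16, where the weakly stained WT tumour stood at 41.1% against 37.7%.

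Macrophages made up less of the immune cells in KO line 24. Macrophage-gate cells, with more UMIs of the macrophage than of the T-cell genes, were 60.2, 74.9 and 64% of immune cells in WT and 27.5, 30.7 and 46.5% in KO line 24, with no overlap (exact two-sided permutation p = 0.10). The same order held under the 7 other ways of calling cells, the thinned cells among them, with 41.2, 58.7 and 51.5% against 19.7, 17.4 and 28.4%. Of the gate genes, Ms4a7, Cd68 and Fcgr1 were also called lower within the gate (log2 fold changes -1.4, -0.88 and -0.74), while Csf1r and Adgre1 did not pass there. Cells entered the gate by UMIs of these same genes, so their levels within it are no separate result. Fewer macrophages and fewer gate transcripts in each cannot be told apart by this share. T-gate cells were 3.78, 5.75 and 15.5% and 7.02, 29.9 and 13.5% of immune cells, with day 10 of KO line 24 highest and the groups overlapping (exact permutation p = 0.40). Counted over all cells, whether or not they passed the immune rule, T-gate cells were 1.76, 2.53 and 9.07% in WT and 6.97, 23 and 13.6% in KO line 24, higher in KO line 24 on all 3 days (exact permutation p = 0.20). Immune cells in neither gate were 36.1, 19.3 and 20.5% and 65.5, 39.5 and 40% of immune cells, again without overlap.

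**Figure D3:**
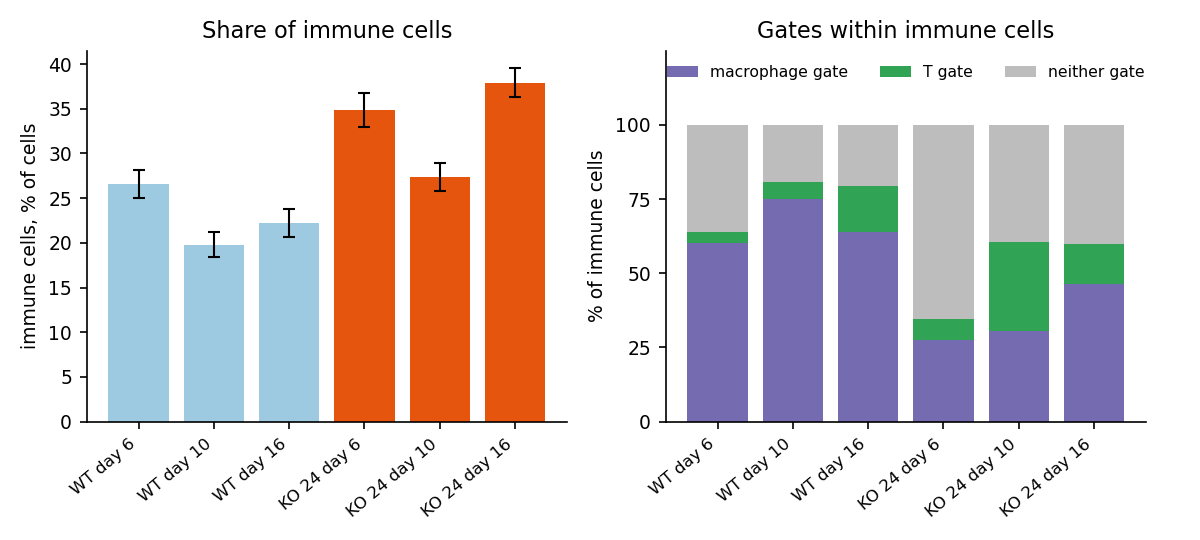
Left, immune cells as a percent of the cells of each tumour, with exact 95% binomial intervals that cover counting error only; right, the immune cells of each tumour divided into the macrophage gate, the T gate and neither. WT macrophage-gate bars reach 60.2% to 74.9% and those of KO line 24 27.5% to 46.5%.

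Summed over all immune cells, 280 of 11444 genes passed the edgeR threshold (2.45%), 32 higher (0.280%) and 248 lower (2.17%) in KO line 24. Without the day term (no replicate block) 10 passed, all of them lower, and 1409 had an unadjusted p under 0.05. Without the pair of day 10 152 passed. In such a sum, fewer cells of a type and less RNA per cell cannot be told apart. The largest rise under the naming rule was that of Il12b, the p40 subunit of interleukins 12 and 23. It was at 3.15, 1.33 and 3.21 CPM in the WT tumours of days 6, 10 and 16 and 62.5, 21.5 and 24.4 CPM in those of KO line 24 (log2 fold change 3.82, SE 0.25, edgeR adjusted p 0.000492). Every KO line 24 tumour lay above every WT tumour, and control line 18 had no UMI on day 6 (which allows up to 1.35 CPM) and 4.27 CPM on day 10. Ccr7, the receptor that guides dendritic cells and naive T cells to lymph nodes, had 64.7, 33.7 and 40.9 CPM in WT and 165, 88.9 and 88.6 CPM in KO line 24 (log2 fold change 1.29, SE 0.1, edgeR adjusted p 0.000953). Fscn1, an actin bundler of mature dendritic cells, rose with 77.3, 54.9 and 54.1 CPM in WT and 139.8, 78.2 and 71 CPM in KO line 24 (log2 fold change 0.59, SE 0.11, edgeR adjusted p 0.040). It is no marker of dendritic cells alone here, since other cells held 90.7, 83 and 83.6 CPM in WT and 93.5, 90 and 77.9 CPM in KO line 24. Collagens, genes of other cells, summed to 1085 to 1224 CPM in WT and 1237 to 1337 CPM in KO line 24 tumours in the immune class, and the part of such RNA in the rise of Fscn1 was not tested. Ccl22, a chemokine of mature dendritic cells, and Il4i1, an amino acid oxidase of antigen-presenting cells, had log2 fold changes of 1.13 and 1.34. Both were highest on day 6 in either group, with 22.7, 5.04 and 3.21 CPM in WT and 42.7, 12.8 and 8.86 CPM in KO line 24 for Ccl22. Of 7 tested dendritic cell markers 2 passed, Ccr7 and Fscn1, both higher, beside 0.280% of all genes.

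Il2rb, Cd7 and Stat4 were among the other rises. Il2rb, a subunit of the receptors of interleukins 2 and 15, had 34.4, 20.7 and 49.3 CPM in WT and 69.5, 101 and 82.1 CPM in KO line 24 (log2 fold change 1.33, SE 0.26, edgeR adjusted p 0.0406). Cd7, a surface protein of T and NK cells, and Stat4, the transcription factor downstream of interleukin 12, had log2 fold changes of 1.31 and 1.06. The T-cell and NK-cell markers themselves had a median of 0.73 (8 tested) and 1.02 (7 tested) with none called. Gzma, a granzyme of NK and cytotoxic T cells, had 128, 47.2 and 53.7 CPM in WT and 170.3, 189 and 99.8 CPM in KO line 24 (edgeR adjusted p 0.0736). T-cell markers in immune cells summed to 110.4 to 342 CPM in WT and 159.8 to 509 CPM in KO line 24 tumours, and NK markers to 75.8 to 201 CPM in WT and 187 to 279 CPM in KO line 24 tumours. Their part in the rises of Il2rb, Cd7 and Stat4 was not tested.

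Many genes of macrophages fell. Of 11 macrophage and monocyte markers 9 fell, against 2.17% of all genes tested in immune cells. The complement components C1qa, C1qb and C1qc, which form the C1q molecule, had log2 fold changes of -1.69, -1.66 and -1.64. C1qa (ENSMUSG00000036887) was at 582, 1886 and 2273 CPM in the WT tumours of days 6, 10 and 16 and 201, 611 and 608 CPM in those of KO line 24 (edgeR adjusted p 0.000249). On each day KO line 24 was lower, although its tumours of days 10 and 16 exceeded WT of day 6. Of 9 tested genes of alternative activation 5 were called lower and none higher, beside the same 2.17% called lower. Among the 9, 2 had higher estimates without passing, the highest a log2 fold change of 2.2. Ccl8, a chemokine of resident-like macrophages, had 617, 265 and 453 CPM in WT and 73.9, 75.2 and 139 CPM in KO line 24 (log2 fold change -2.17, SE 0.23, edgeR adjusted p 0.00365), and Folr2, the folate receptor beta, had 17.3, 24.7 and 22 CPM in WT and 4.7, 6.15 and 2.02 CPM in KO line 24 (log2 fold change -2.41, SE 0.29, edgeR adjusted p 0.00598). Mrc1, the mannose receptor, and Stab1, a scavenger receptor, had log2 fold changes of -1.79 and -1.86, and Maf, a transcription factor of such macrophages, one of -1.0. Trem2, a lipid receptor, had 40.4, 119 and 121 CPM in WT and 18.8, 39.2 and 38.1 CPM in KO line 24 (log2 fold change -1.51, SE 0.13, edgeR adjusted p 0.00125). It was 1 of 3 that fell among 12 lipid-associated macrophage genes, beside 2.17% of all genes, and 4 of the 12 had higher estimates (median -0.069). The other two, Fabp5 and Ctsl, fell by 0.72 and 0.45 on the log2 scale. Siglec1 (CD169), Ch25h (cholesterol 25-hydroxylase) and Cd300ld3 (a myeloid receptor) fell by 1.89, 2.13 and 2.27 on the log2 scale.

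Inflammatory genes did not move as a group. Of 12 tested, Il12b rose while Tnf and Nos2, the inducible nitric oxide synthase, fell, beside 0.280% and 2.17% of all genes. The falls of Tnf and Nos2 had estimates of -1.2 and -1.45. Tnf had 126, 111 and 78.1 CPM in WT and 78.9, 30 and 36.5 CPM in KO line 24 (log2 fold change -1.2, SE 0.2, edgeR adjusted p 0.0221). Of 15 tested chemokine and colony-stimulating factor genes 3 fell and none rose, beside 2.17% and 0.280% of all genes: Ccl8, given above, Ccl7 with 466, 589 and 402 CPM in WT and 195, 285 and 150.3 CPM in KO line 24 (log2 fold change -1.24, SE 0.091, edgeR adjusted p 0.00064) and Ccl2 with a log2 fold change of -0.52. Of 8 tested complement genes, C3 and Cfb of the alternative pathway fell, beside 2.17% of all genes, while 4 of the 8 had higher estimates and the median was 0.044. The estimates of C3 and Cfb were -0.69 and -0.97. Zfp36 fell and was the 1 called of 12 immediate early genes, beside 2.17% of all genes called lower. Tgfbi, Il7r and Cd79b were also called lower, and Smad7, Ptgds and Car9 higher. Of these, Tgfbi, Il7r and Cd79b were called lower in the macrophage gate too. Vsir, the checkpoint ligand VISTA, fell with 47.6, 55.9 and 71.7 CPM in WT and 29.6, 32.4 and 38.4 CPM in KO line 24 (log2 fold change -0.8, SE 0.11, edgeR adjusted p 0.00903), and Entpd1, the ectonucleotidase CD39, by 0.97 on the log2 scale. Of 12 genes of MHC class I and 20 of the interferon response none passed, with medians of -0.26 and -0.17, and of 7 class II genes 1 passed, again beside 2.17% called lower, H2-DMb1 at -0.4 (edgeR adjusted p 0.0499). The class II effect differed between the sums of immune and of other cells. Both sums mix cell types whose shares differed between the groups, and the part of this in the difference was not tested. The effect in immune cells minus that in other cells was -1.56 for Cd74 (SE 0.28, edgeR adjusted p 0.0156), -1.55 for H2-Aa, -1.4 for H2-Ab1 and -1.62 for H2-Eb1, with edgeR adjusted p of 0.0311, 0.0453 and 0.0291.

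Cck, the hormone cholecystokinin, had the largest fall of the immune class under the naming rule, with 18, 77.4 and 99.8 CPM in WT and 8.73, 9.22 and 8.86 CPM in KO line 24 (log2 fold change -2.84, SE 0.35, edgeR adjusted p 0.00629). Of its 598 UMIs in WT immune cells, 359 came from cells in neither gate. In immune cells of neither gate it was at 46.3, 297 and 349 CPM in WT and 11.5, 20.8 and 6.32 CPM in KO line 24, and in other cells at 77.9, 40 and 10.7 CPM in WT and 3.61, 11.9 and 7.09 CPM in KO line 24. In WT the level thus went down from day 6 to day 16 in other cells and up in immune cells. Genes of osteoclasts also fell, 4 of 9 tested beside 2.17% of all genes. Ctsk, the collagenase cathepsin K, had 28.1, 94.1 and 47.3 CPM in WT and 13.8, 16.1 and 13.2 CPM in KO line 24 (log2 fold change -1.91, SE 0.24, edgeR adjusted p 0.00715), and Mmp9, a gelatinase, had 14.5, 46.7 and 22.8 CPM in WT and 10.4, 10.9 and 4.66 CPM in KO line 24. Control line 18 stood apart from both groups here, with 1170 and 900.1 CPM of Ctsk, 542 and 505 CPM of Mmp9 and 842 and 767 CPM of Acp5, the tartrate-resistant acid phosphatase.

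Within the macrophage gate, 179 of 10158 genes passed (1.76%), 26 higher (0.256%) and 153 lower (1.51%). Without the day term (no replicate block) none passed in edgeR (899 at an unadjusted p under 0.05), and DESeq2 with the day term called 77. Leaving out the pair of day 6, 10 or 16 gave 519, 45 and 57 calls. The gate held 231 to 628 cells a tumour. Several of the genes that fell over all immune cells also fell here. C1qa had 849, 2260.3 and 3288 CPM in WT and 501, 1418 and 1128 CPM in KO line 24, with a log2 fold change of -1.0 against -1.69 over all immune cells (edgeR adjusted p 0.0034 in the gate). C1qb and C1qc fell by 0.99 and 0.93. Mrc1 had 108, 209 and 329 CPM in WT and 69.8, 157 and 76.6 CPM in KO line 24 (log2 fold change -1.09, SE 0.25, edgeR adjusted p 0.0423). Folr2 had 26.5, 30 and 31.9 CPM in WT and 10.7, 13.8 and 3.11 CPM in KO line 24 (log2 fold change -1.88, SE 0.34, edgeR adjusted p 0.0146), with no overlap between the groups. Ccl8 had 925, 316 and 659 CPM in WT and 168, 171 and 268 CPM in KO line 24 (log2 fold change -1.52, SE 0.21, edgeR adjusted p 0.00289), also with no overlap. These 3 were the called members among 8 tested genes of alternative activation, whose median was -0.93 against 0.0034 over all genes. Among the 8, 1 had a higher estimate, a log2 fold change of 1.02. Trem2, Fabp5 and Ctsl fell by 0.94, 0.88 and 0.45, while the other 9 of 12 lipid-associated genes did not pass.

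The largest fall in the gate under the naming rule was that of Cd300e, an activating receptor of nonclassical monocytes, with 21.5, 15.2 and 9.45 CPM in WT and 2.15, 1.8 and 0.623 CPM in KO line 24 (log2 fold change -3.35, SE 0.41, edgeR adjusted p 0.00164). Ctsk and Mmp9 fell by 2.15 and 2.06, with no overlap. Tnf had 146, 127 and 98 CPM in WT and 89.2, 50.4 and 44.5 CPM in KO line 24 (log2 fold change -1.06, SE 0.14, edgeR adjusted p 0.00264). Among the remaining lists H2-D1, a heavy chain of MHC class I, the interferon-induced Ifit3 and the chemokine Cxcl16 fell (-0.39, -0.66 and -0.5). H2-D1 was the 1 called of 12 MHC class I genes and Ifit3 the 1 called of 20 interferon response genes, beside 1.51% of all genes called lower in the gate. No class II gene passed, and H2-Aa had 1849.7, 1912 and 4667 CPM in WT and 1521, 3245 and 3816 CPM in KO line 24. H2-Aa and Cd74 were higher on day 16 than on day 6 in both groups.

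Rises in the gate were fewer. Xcl1, a chemokine of NK and T cells, had 2.0, 2.58 and 3.54 CPM in WT and 63.4, 4.8 and 9.66 CPM in KO line 24 (log2 fold change 2.83, SE 0.55, edgeR adjusted p 0.022), with the day 6 tumour of KO line 24 far above the others. The same gene was at 377, 182 and 234 CPM in WT and 232, 124 and 224 CPM in KO line 24 in T-gate cells, and NK markers in the macrophage gate summed to 17.1 to 61.5 CPM in WT and 42.4 to 60.3 CPM in KO line 24 tumours. Cd209a, a lectin of monocyte-derived dendritic cells, had 2.0, 1.61 and 1.18 CPM in WT and 9.67, 7.2 and 5.92 CPM in KO line 24 (log2 fold change 2.2, SE 0.46, edgeR adjusted p 0.0283), on 11 UMIs in WT and 40 in KO line 24. Serpine2, a protease inhibitor, Tbc1d4, a regulator of glucose transporter traffic, Aldh1l2, a mitochondrial enzyme of folate metabolism, and Atp8b2, a phospholipid flippase, had log2 fold changes of 1.23, 1.35, 1.44 and 0.99. Egr1, an immediate early transcription factor, rose with 291, 273 and 205 CPM in WT and 347, 467 and 315 CPM in KO line 24 (log2 fold change 0.56, SE 0.12, edgeR adjusted p 0.0306).

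**Figure D4:**
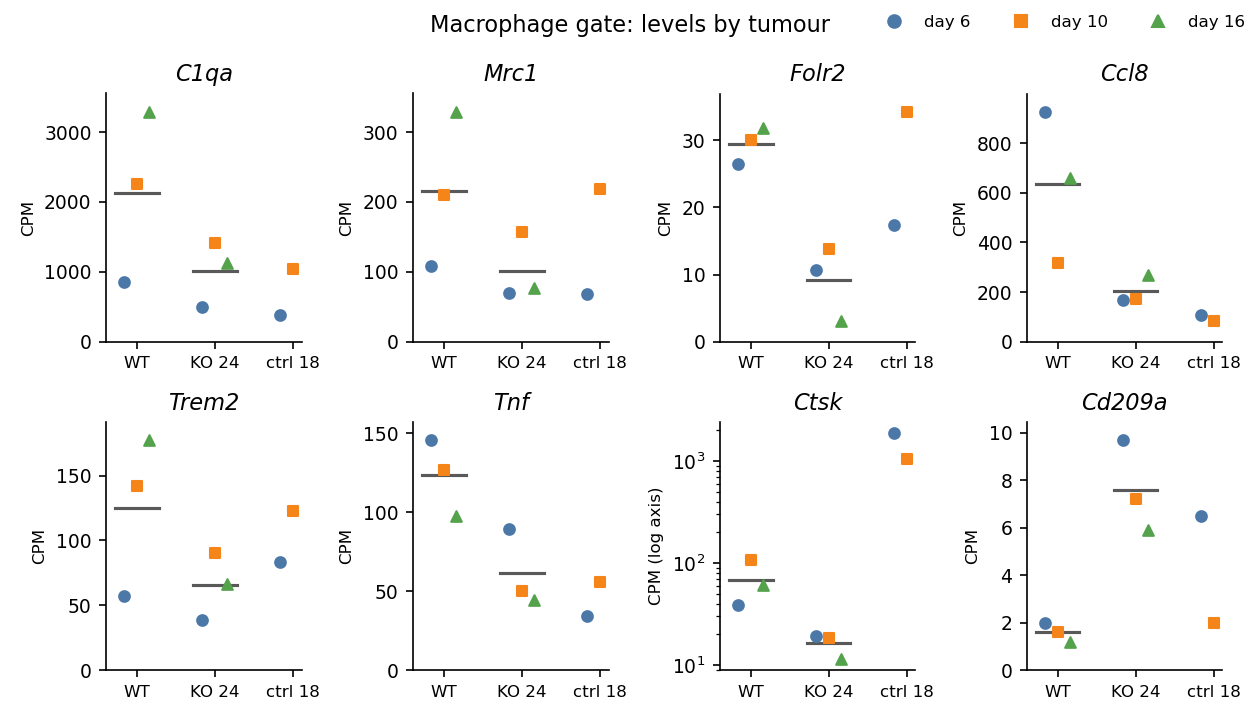
Levels in macrophage-gate cells in CPM (vertical axis, logarithmic for Ctsk) in the WT, KO line 24 and control line 18 tumours; points are tumours by day and bars the means of 3 tumours. Folr2, Ccl8, Tnf and Ctsk are lower and Cd209a higher in every KO line 24 tumour than in every WT tumour, and C1qa, Mrc1 and Trem2 overlap across days.

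Immune cells in neither gate had the higher level of dendritic cell markers, which summed to 277 to 349 CPM in WT and 304 to 510.4 CPM in KO line 24 tumours, against 83.4 to 89.5 CPM in WT and 88.6 to 144 CPM in KO line 24 tumours in the macrophage gate. There Il12b was at 9.46, 1.82 and 2.37 CPM in WT and 95.6, 25.8 and 68.2 CPM in KO line 24, on 12 and 361 UMIs, and all 3 KO line 24 tumours lay above all WT tumours. Ccr7 was at 150.4, 87.4 and 95 CPM in WT and 248, 144 and 186 CPM in KO line 24, with day 10 of KO line 24 below day 6 of WT. In the macrophage gate Il12b had 11 UMIs in WT and 73 in KO line 24. Ccl22 had 59.6, 25.5 and 11.9 CPM in WT and 63.2, 28.7 and 21.7 CPM in KO line 24 in cells of neither gate, with overlap between the groups, while the share of these cells among immune cells was larger in KO line 24. No test was run on this class. Its cells were shallow, with a median of 1885, 2686 and 1603.5 UMIs in WT and 1507.5, 1726.5 and 2152.5 in KO line 24.

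In the T gate 2 of 4733 genes passed (0.0423%), Fos higher (0.0211%) and Trbv19 lower (0.0211%), with 253 genes at an unadjusted p under 0.05 in edgeR. DESeq2 called 1, and without the day term (no replicate block) edgeR called none (214 at an unadjusted p under 0.05). Leaving out the pair of day 6 gave 14 calls, and leaving out that of day 10 none (148 at an unadjusted p under 0.05). Fos did not pass in 6 of 12 alternatives: without the day term, without the pair of day 10 or of day 16, with a hashtag ratio of 10, with HTODemux and without the cells with most UMIs. The gate held 32 to 268 cells a tumour, with 32 and 36 in the WT tumours of days 6 and 10, and the count of genes tested was the lowest of the 4 classes. Fos, a subunit of AP-1, had 247, 603 and 289 CPM in WT and 751, 973 and 719 CPM in KO line 24 (log2 fold change 1.16, SE 0.17, edgeR adjusted p 0.0248), with control line 18 at 866 and 759.7 CPM. All 12 immediate early genes had higher estimates in KO line 24 (median 0.41), and 1 passed. Trbv19, a variable segment of the T-cell receptor beta chain that lies outside the rule for named genes, stood at 40.1, 203 and 134 CPM in WT and 39.0, 11.1 and 1.11 CPM in KO line 24. Gzmb, a granzyme, had 762, 1051 and 587 CPM in WT and 664, 357 and 422 CPM in KO line 24 (log2 fold change -0.76, SE 0.2, edgeR adjusted p 0.438). Of 7 tested granzyme and perforin genes, 6 inhibitory receptors, 7 memory and homing genes and 7 genes of costimulation none passed, with medians of -0.048, -0.34, 0.2 and -0.39. Ctla4, which rose in the other cells, had 114, 149 and 201 CPM in WT and 117, 189.5 and 154 CPM in KO line 24 within the T gate (log2 fold change -0.056, SE 0.22, edgeR adjusted p 1.0).

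**Figure D5:**
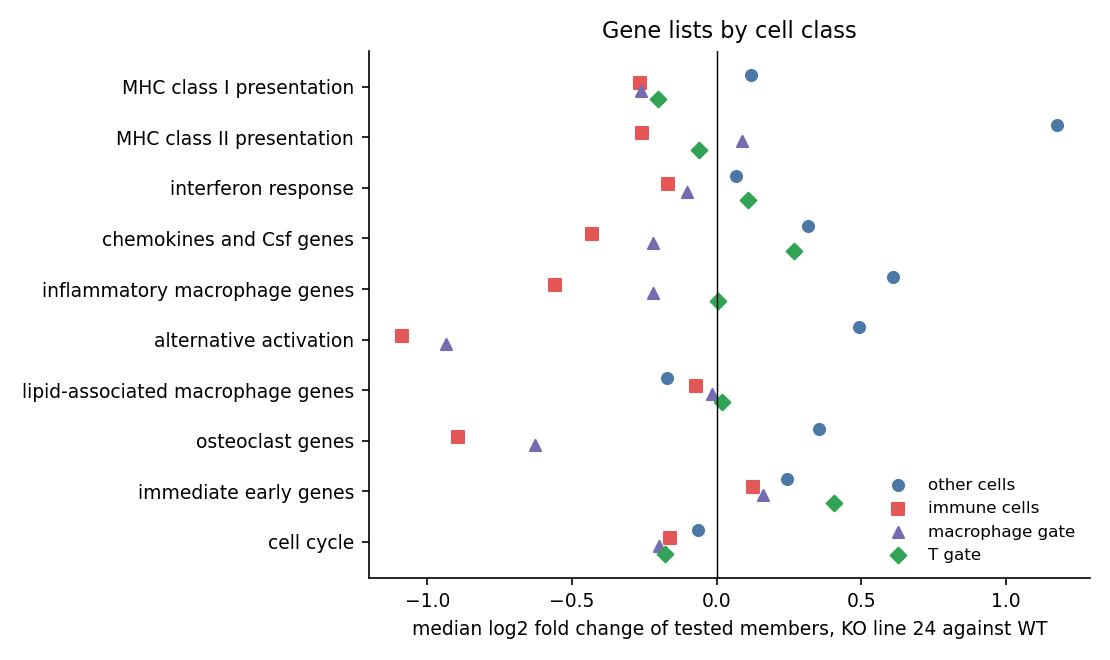
Median log2 fold change of the tested members of 10 gene lists (horizontal axis) in other cells, all immune cells, the macrophage gate and the T gate; lists with fewer than 3 tested members in a class are left out. MHC class II genes stand at 1.18 in other cells and 0.089 in the macrophage gate, and genes of alternative activation at -1.09 in immune cells and -0.93 in the macrophage gate.

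Across the classes, 390 of 13049 genes passed the edgeR test of a different effect in immune and other cells (2.99%), 328 with the lower effect in immune cells. The number was 349 with an immune rule of 4 UMIs.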

How the data were processed

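Tumours were dissociated, stained with TotalSeq-C hashtag antibodies, sorted for live cells and captured with a 10x 5′ v2 kit, per the labels. The deposited matrices hold UMI counts per gene and barcode and hashtag counts per barcode, made by the authors with Cell Ranger 6.0.0 on mm10, per the submitters' processing notes. The members and gene lists were chosen with earlier results of these data known. Counts were summed per tumour and cell class and tested with edgeR 4.0.16 (R 4.3.3; filterByExpr, TMM scaling, quasi-likelihood fit with day and group, Benjamini-Hochberg over all genes tested, threshold 0.05). Shares were compared with exact permutation tests that, unlike the gene tests, did not use the day pairs (scipy 1.17.1). Scripts were tested on simulated counts. Intervals and floors cover counting error only. The set of named genes held Mif, the 8 largest changes each way in other and immune cells and the 5 largest in each gate. Those changes needed an edgeR adjusted p under 0.05, mean logCPM of at least 3 and the same sign in all 3 pairs. Receptor variable genes, predicted genes and gate genes were left out. The set also held up to 4 called members of each list, or else the 2 most abundant, and 9 genes from an earlier analysis. Not every gene of the set is described above.

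Tumours were paired by the day that the hashtag sheet gives for each, which is a choice of the comparison. The deviations of same-day tumours correlated at 0.34, 0.013 and 0.016 (days 6, 10 and 16) in other cells, at 0.30, -0.020 and 0.13 in immune cells and at 0.26, 0.12 and 0.12 in the macrophage gate. Alternatives were DESeq2 1.42.0, RLE scaling, no filter, no day term, all 8 tumours of the library in the fit, each pair left out, other hashtag, depth and immune rules, and HTODemux (Seurat 5.3.0). The removal of other cells with immune gate UMIs was added after seeing the data. A plan for 9 tumours met 8, since control line 18 has none for day 16. No doublet caller was run: cells with 2 hashtags were dropped by the hashtag ratio, and doublets within a tumour remain. Sequences are from RefSeq (GRCm38.p6). The other 5 gene expression libraries were used only to count shared barcodes.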

Additional observations from a re-analysis of the deposited data

Results flagged for a closer look

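Mif in the tumours of KO line 24 differed in its change between classes: the change in immune cells minus that in other cells was 1.05 on the log2 scale in edgeR, with all 3 KO line 24 tumours below all WT tumours in other cells and overlap in immune cells. The same difference was -1.56 for Cd74, -1.55 for H2-Aa, -1.40 for H2-Ab1 and -1.62 for H2-Eb1, with the higher change in other cells. Both classes are sums over mixed cell types, and the part of their composition in these differences was not tested. Control line 18 lies outside the comparison of KO line 24 with WT, and its macrophage-gate cells had 1870.2 and 1042 CPM of Ctsk on days 6 and 10 and 861 and 569 CPM of Mmp9. WT tumours had at most 107 CPM of Ctsk and 54.2 CPM of Mmp9 in that gate.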

How the results depend on the processing

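Numbers of called genes depended on the settings. Counts that moved by over 1.5 times are given after the main count, and the other settings stayed within it. In other cells (86) DESeq2 called 388, no filter 805, a hashtag ratio of 10 gave 17, HTODemux 570, removal of the cells with most UMIs 136, removal of endothelial, fibroblast and keratinocyte gate cells 141, and leaving out 1 pair 0 to 1854. No day term gave 89 in other cells and all 8 tumours 59, each sharing 48 with the 86. In immune cells (280) no filter gave 1021, no day term (no replicate block) 10, all 8 tumours 157, HTODemux 87, an immune rule of 1 UMI 53, and leaving out 1 pair 152 to 387. In the macrophage gate (179) DESeq2 called 77, no filter 487, no day term 0, all 8 tumours 15, a ratio of 10 gave 93, HTODemux 37, and leaving out 1 pair 45 to 519. In the T gate (2) DESeq2 called 1, no filter 32, no day term 0, a ratio of 10 gave 4, HTODemux 1, removal of the cells with most UMIs 1, and leaving out 1 pair 0 to 14. The fall of Mif was -1.15 to -1.06 with 1 pair left out, and did not pass without day 6 (-1.07) or day 10 (-1.06).

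The 98 named and called genes gave 1362 values under the alternatives, of which 939 passed in the same direction, 422 kept the direction without passing and 1 turned: Car9 in immune cells was 0.45 in the main fit and -0.042 with HTODemux. Without the day term none of the 44 named immune genes passed and 13 of the 26 in other cells did. Without day 10, 25 of 43 named immune genes and 12 of 27 in the macrophage gate passed. The difference in the share of immune cells, 10.5 percentage points, was 3.85 with an immune rule of 4 UMIs, 4.61 after thinning, 1.20 with a ratio of 10, and 7.93 to 12 with 1 pair left out. The causes were not tested, other than that fewer tumours or genes enter a fit.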
